A study of Mus musculus with 24 samples.

Results

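In mouse embryonic stem cells, 202 of 24594 genes in the count table were at least 2-fold higher both in a line without WSTF and in a line without BPTF. After 6 were left out by position, 196 remained and are the members described here. Genes were chosen by a difference of at least 1 in log2(mean CPM + 0.5), where CPM is the count scaled by the library's total, between the knock-out line and the wild type of its own batch, in the Wstf line against wild type A and in the Bptf line against wild type C. Of 496 genes that passed in the Wstf line and 687 in the Bptf line, 202 passed in both. Among the genes tested these were 494 (3.15%), 687 (4.38%) and 202 (1.29%). The 6 that lay in segments of chromosome 4 (139.6 to 148 Mb) and chromosome 6 (66.9 to 94.3 Mb) were left out, namely Padi4, Igsf21, Klhdc7a, Fam131c, Arhgef10l and Tlx2. The same rule leaves out clustered protocadherin and histone genes, of which 0 had passed. Of the 196 genes, 190 are annotated as protein coding and 6 as long noncoding RNAs, and all 196 passed the filter on low counts that left 15682 genes for testing.

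By its labels the study profiled polyadenylated RNA of untreated embryonic stem cells of 129S6/SvEvTac background, cultured in serum with LIF. Each of 6 lines carries a CRISPR–Cas9 deletion of 1 accessory subunit of the ISWI remodelers, and each line was sequenced beside wild-type cells of its own batch. Batch A held wild type, Rsf1Δ and WstfΔ libraries, batch B wild type and Tip5Δ, batch C wild type and BptfΔ, batch D wild type and libraries labelled Cecr2Δ, and batch E wild type and Acf1Δ. There were 2 libraries per group, and 3 per group in batch D, which makes 24 in all. Batch C differed in kind from the others: the RNAs Rpph1 and Rmrp, which lack a poly(A) tail, were at 3393 and 614 normalized CPM in its wild type and at 4429 and 689 in BptfΔ, and at 2.98 or less in every other group. A genotype is represented by a single clone, so a difference between a line and wild type also holds whatever sets that clone apart. The p-values given here rest on the spread between libraries of the same group, estimated over all 24 libraries. They do not measure a spread between clones.

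ISWI remodelers pair an ATPase, SNF2H or SNF2L, with an accessory subunit and slide nucleosomes along DNA. WSTF, encoded by Baz1b, forms the WICH complex, which is known for its link to replication and to chromatin maintenance, and BPTF is the large subunit of NURF, which reads histone marks and opens chromatin for transcription factors. Naive pluripotent cells rely on factors such as KLF4, TFCP2L1, TBX3 and ESRRB, which LIF and related signals sustain.

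Library totals ran from 13417755 to 36721585 counts, and both WstfΔ libraries were the lowest. Baz1b mRNA was lower in the WstfΔ line than in wild type A (log2 fold change −2.40 ± 0.09, SE, edgeR adjusted p = 7.05e-18), and Bptf mRNA was lower in the BptfΔ line than in wild type C (−1.97 ± 0.11, adjusted p = 5.9e-14). Rsf1 was lower in the Rsf1Δ line (−2.26 ± 0.09, adjusted p = 3.39e-17), and Baz1a in the Acf1Δ line (−1.72 ± 0.07, adjusted p = 2.73e-16). Baz1a was also lower in the WstfΔ line (−0.83 ± 0.07, adjusted p = 1.04e-10) and in the BptfΔ line (−1.74, adjusted p = 3.99e-17). Smaller falls of Baz1a were seen in Rsf1Δ (−0.64 ± 0.06, edgeR adjusted p = 8.76e-09) and the libraries labelled Cecr2Δ (−0.47 ± 0.05, adjusted p = 5.08e-08). Cecr2 was lower in the BptfΔ line (−1.56 ± 0.09, edgeR adjusted p = 1.49e-13). Baz2a, which encodes TIP5, was not called in the libraries labelled Tip5Δ (−0.26 ± 0.09, adjusted p = 0.0533), and Cecr2 was slightly higher, not lower, in those labelled Cecr2Δ (0.37 ± 0.07, adjusted p = 0.000154). The mRNA level does not check the protein, which by the study's description was not detectable by western blot in any of the deletion lines. The blots were not analysed here.

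The promoters of 5 genes are shown because members tended to have GC-rich starts, and because these genes are described by their values in later paragraphs. They are the windows from 250 bases before to 50 bases after the annotated start, from RefSeq on GRCm38.p6 (mm10), printed 5′ to 3′ on the gene's strand, with the GC box GGGCGG and its reverse complement in capitals. Mdga1 had the largest weaker difference of all members (the weaker difference is the smaller of a gene's values in the Wstf and Bptf lines), Cpt1a and Flt4 were among the highest, Klf4 is a naive pluripotency factor, and Fignl2 is a member whose window held no GC box.
Mdga1, chr17:29887833-29888132, minus strand: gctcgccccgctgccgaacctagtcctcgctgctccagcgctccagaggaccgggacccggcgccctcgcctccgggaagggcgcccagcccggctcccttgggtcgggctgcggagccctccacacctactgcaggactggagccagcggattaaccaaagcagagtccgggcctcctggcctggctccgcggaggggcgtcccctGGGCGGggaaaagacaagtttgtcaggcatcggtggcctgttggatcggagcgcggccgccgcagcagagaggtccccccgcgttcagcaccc
Cpt1a, chr19:3323051-3323350, plus strand: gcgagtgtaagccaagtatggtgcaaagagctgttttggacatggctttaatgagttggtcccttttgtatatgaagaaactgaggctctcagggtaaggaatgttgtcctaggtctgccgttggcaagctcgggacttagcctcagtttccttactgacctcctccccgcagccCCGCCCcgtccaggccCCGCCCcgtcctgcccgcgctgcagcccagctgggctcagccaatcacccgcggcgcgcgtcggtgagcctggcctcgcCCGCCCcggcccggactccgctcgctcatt
Flt4, chr11:49609429-49609728, plus strand: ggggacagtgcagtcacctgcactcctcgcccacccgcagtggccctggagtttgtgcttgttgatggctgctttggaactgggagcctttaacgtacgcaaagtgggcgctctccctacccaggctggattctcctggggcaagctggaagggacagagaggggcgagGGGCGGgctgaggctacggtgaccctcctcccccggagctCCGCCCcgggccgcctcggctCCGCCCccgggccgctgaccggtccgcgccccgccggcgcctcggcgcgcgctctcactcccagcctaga
Klf4, chr4:55532426-55532725, minus strand: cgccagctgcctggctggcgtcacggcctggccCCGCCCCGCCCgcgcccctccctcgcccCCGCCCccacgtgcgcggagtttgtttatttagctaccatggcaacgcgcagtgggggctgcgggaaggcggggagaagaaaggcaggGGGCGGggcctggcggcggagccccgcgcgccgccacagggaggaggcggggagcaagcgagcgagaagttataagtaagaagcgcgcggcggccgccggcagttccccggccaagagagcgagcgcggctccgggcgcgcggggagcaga
Fignl2, chr15:101054350-101054649, minus strand: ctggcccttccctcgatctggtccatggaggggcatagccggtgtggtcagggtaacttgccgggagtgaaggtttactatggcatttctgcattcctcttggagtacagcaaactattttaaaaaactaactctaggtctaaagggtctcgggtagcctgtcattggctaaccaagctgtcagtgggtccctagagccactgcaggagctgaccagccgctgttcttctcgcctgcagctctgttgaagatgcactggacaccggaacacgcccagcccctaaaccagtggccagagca
A window was found for 138 members and for 12223 of the genes tested. Its median GC content was 64.8% over members (quartiles 59.3 and 70.7%) and 60.7% over all genes tested (54.3 and 67.0%). The median ratio of observed to expected CpG was lower over members, 0.695 against 0.741. The part of GC content in the motif shares below was not tested. The GC box, which SP and KLF factors bind, stood on either strand in 100 of the 138 windows (72.5%), against 62.5% of all windows. The Klf4 window held 4 boxes, of which 1 pair overlaps, the Cpt1a and Flt4 windows held 3 each and the Mdga1 window 1. The CRE, TGACGTCA, was in 0 of the 138 windows and in 3.12% of all windows, and the E-box CACGTG was in 6.52% and 10% respectively. Shares were close to the background for the TATA box TATAAA (7.97 and 7.44%), the KLF4 core GGGTGTGG (4.35 and 3.83%), the STAT motif TTCNNNGAA (7.25 and 6.66%), the TEAD motif CATTCC (13.8 and 12.2%), the FOXO motif GTAAACA (2.17 and 2.49%) and the CTCF core motif (3.62 and 2.8%). The AP-1 motif TGANTCA was in 7.25 and 5.02%, CCAAT in 34.8 and 38.7%, and the ERR half-site TCAAGGTCA in 0 and 0.245%. These are matches of letters on both strands of a short window and say nothing of binding.

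The difference that chose the members had a median of 1.29 in the WstfΔ line and 1.57 in the BptfΔ line, on the log2(CPM + 0.5) scale. It was larger in the BptfΔ line for 134 of the 196 genes. It reached 2, which is 4-fold, for 18 genes in the WstfΔ line, for 43 in the BptfΔ line and for 7 in both. The largest values were 2.95 for Tgm2 in the WstfΔ line and 3.57 for Irak3 in the BptfΔ line. Of the weaker differences, 91 were under 1.2, so many members lay close to the threshold. In edgeR's quasi-likelihood fit all 196 were called raised in both lines (more than 2-fold at an adjusted p under 0.01), where 3.87% of all genes tested were called raised in the WstfΔ line and 5.25% in the BptfΔ line. The rule used the same contrasts, so nothing is read from that count.

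**Figure D1:**
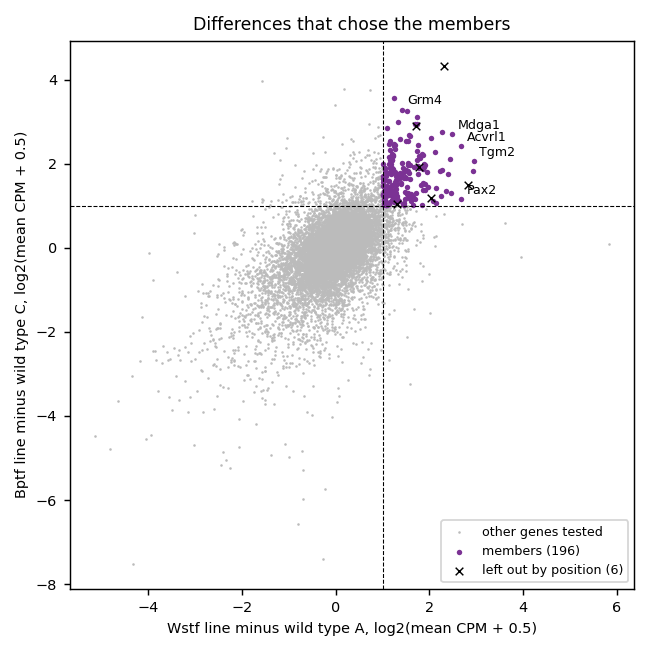
Each point is a gene tested, placed by the difference in log2(mean CPM + 0.5) between the WstfΔ line and wild type A (x axis) and between the BptfΔ line and wild type C (y axis). The 196 members (purple) fill the upper right corner beyond both dashed lines at 1, and crosses mark the 6 genes left out by position.

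Just inside the threshold were Clec11a, which encodes a secreted growth factor, with differences of 1.01 and 1.28, Nxph3, a ligand of neurexins, with 1.10 and 1.01, and Trim16, a tripartite motif protein, with 1.45 and 1.01. Just outside were Arhgap26 with a weaker difference of 0.996, C130074G19Rik with 0.994 and Dtx1 with 0.993. The lowest count of any member in a WstfΔ or BptfΔ library was 5, and 12 members had a mean under 10 counts in wild type A or C, which makes their differences imprecise.

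Levels below are CPM on library sizes scaled by TMM factors (normalized CPM), given for wild type A, WstfΔ, wild type C and BptfΔ, then as the lowest, median and highest of the 7 wild-type libraries of batches B, D and E. The rule did not use those 7. Every WstfΔ and BptfΔ library exceeded each of those 7 for 145 of the 196 members and for 7.46% of all genes tested. The rule used the WstfΔ and BptfΔ levels, so a lack of overlap below is a description only. WstfΔ was in batch A and BptfΔ in batch C, so a direct difference of either from those 7 libraries holds the difference between batches as well as that between line and wild type, which the wild type of the same batch separates. For BptfΔ the former includes the different RNA content of batch C.

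Among adhesion and matrix genes, Mdga1, a GPI-anchored protein that regulates synaptic adhesion, had the largest weaker difference of all members (2.48). Mdga1 was at 5.86 and 5.43 in wild type A, 30.3 and 37.1 in WstfΔ, 7.35 and 5.37 in wild type C, and 43.2 and 45.8 in BptfΔ. In the other wild types Mdga1 ran from 6.71 over 10.2 to 16.3. Every WstfΔ and BptfΔ library of Mdga1 was therefore above every wild-type library. Tgm2, a transglutaminase that cross-links matrix proteins, was at 19.9 and 18.5 in wild type A, 159 and 143 in WstfΔ, 21.4 and 19.6 in wild type C, and 87.8 and 88.1 in BptfΔ. The other wild types held Tgm2 at 20.1 to 49.97 with a median of 41.3, so the lines stood apart from them by less than from their own controls. Tgfbi, a secreted matrix protein induced by TGF-β, was at 13 and 13, 50.1 and 48.9, 19.6 and 17, and 75.9 and 73.9 in the same order, against 14.4, 22.1 and 24.5 in the other wild types. Tns1, a focal adhesion protein, was at 12.9 and 15.2, 73.5 and 66.4, 9.92 and 9.22, and 35.4 and 37.4. The BptfΔ values of Tns1 were only just above the highest of the other wild types, 35.2. Lims2, another focal adhesion protein, was at 1.36 and 2.2, 17.3 and 16, 2.52 and 3.09, and 10.5 and 12.3, against 2.34, 6.04 and 8. Over the 17 members of this group, the differences had medians of 1.48 in WstfΔ and 1.86 in BptfΔ, and Itgb3, Ncam1, Loxl1, Matn1 and Dsg2 were among them.

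Among 19 signalling receptors and ligands the medians were 1.55 and 1.66. Acvrl1, the type I receptor for BMP9 known as ALK1, was at 1.08 and 1.25 in wild type A, 10.7 and 9.59 in WstfΔ, 1.78 and 1.28 in wild type C, and 10.6 and 10.3 in BptfΔ. It was at 1.85, 2.45 and 3 in the other wild types, so the lines and the wild types did not overlap. Flt4, the receptor for VEGF-C, was at 5.58 and 5.51, 23.3 and 25.4, 7.14 and 6.24, and 44.5 and 43.4, against 5.29, 9 and 11.5. Acvr1b, a type I receptor for activin and Nodal that lies next to Acvrl1, was at 43.1 and 45.5, 97.3 and 95.1, 42.4 and 37.0, and 102 and 99.9, against 42.0, 63.4 and 70.9. Sfrp1, a secreted antagonist of Wnt, was at 103 and 98.4, 308 and 293, 122 and 124, and 427 and 425, against 147.6, 160 and 239. Notum, which inactivates Wnt proteins, had differences of 1.2 and 2.10, and the Wnt ligand Wnt6 had 1.12 and 1.05. The group also held the TGF-β family ligands Bmp7 (2.08 and 1.10), Inha (1.66 and 1.2) and Gdf15 (1.81 and 2.14), the growth factor Fgf1 (2.39 and 1.76) and the ephrin receptor Ephb2 (1.5 and 1.66).

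The 6 pluripotency and LIF-linked members were Klf4, Tbx3, Tfcp2l1, Tcl1, Jam2 and Stat5b, with medians of 1.14 and 1.30, the lowest of the 6 groups. Tfcp2l1, a naive pluripotency factor, was at 542 and 540 in wild type A, 1189 and 1184 in WstfΔ, 719 and 761 in wild type C, and 2043 and 2027 in BptfΔ. It was at 606, 681 and 804 in the other wild types, below both lines. Klf4 was at 133 and 121, 316 and 312, 114 and 118, and 249 and 261 in the same order, against 162, 197 and 262. Here the BptfΔ libraries lay within the range of the other wild types, and the WstfΔ libraries above it. Tbx3, a T-box factor of the LIF response, was at 76.8 and 77.6, 220 and 213, 67.7 and 70.3, and 174 and 175, against 98.7, 128 and 136. Jam2, an adhesion molecule of naive cells, was at 129 and 131, 283 and 291, 115 and 114, and 351 and 344, against 144, 214 and 222. Tcl1, a coactivator of AKT, was at 38.0 and 35.5, 78.7 and 72.6, 42.7 and 42.1, and 93.8 and 93.2, against 44.5, 57.7 and 76.6. One WstfΔ library of Tcl1 lay within the range of the other wild types.

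Of 28 naive pluripotency genes, which include these 5, 5 were called raised and 2 lowered in WstfΔ, and 7 raised and 2 lowered in BptfΔ, with list medians of 0.26 and 0.36 on the log2 scale. Of all genes tested 3.87% were called raised and 6.57% lowered in WstfΔ, and 5.25% and 8.59% in BptfΔ. The 5 members were chosen for being raised, which fixes 5 of the raised calls in each line, and nothing is read from that count. Over all genes tested the medians were −0.03 and 0.01. The naive genes called raised in BptfΔ but not members were Esrrb (1.19 ± 0.06, edgeR adjusted p = 8.24e-15) and Prdm14 (1.66 ± 0.07, adjusted p = 1.67e-16). In WstfΔ their log2 fold changes were 0.75 ± 0.06 and 0.86 ± 0.07, below 2-fold. Dppa3 and Aire were called lowered in both lines. Of 17 formative and primed pluripotency genes 0 were members, 2 were called raised and 8 lowered in WstfΔ, and 0 raised and 12 lowered in BptfΔ, with list medians of −0.99 and −1.90. In BptfΔ 3 of the 17 were higher at an unadjusted p under 0.05 in edgeR, and DESeq2 also called 0. Otx2, a formative factor, had log2 fold changes of −1.39 ± 0.09 and −2.24 ± 0.11, and Dnmt3b, a de novo DNA methyltransferase, −1.34 ± 0.06 and −1.83 ± 0.06. Lefty2, an inhibitor of Nodal signalling, was called raised in WstfΔ (1.60 ± 0.08) and lowered in BptfΔ (−3.37 ± 0.11).

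The members with the highest CPM over both lines, without regard to gene length, were Tfcp2l1, Sfrp1, Tle5, Ly75, Jam2, Klf4, Obsl1 and Mras. Tle5, a short Groucho-type corepressor, was at 125 and 112 in wild type A, 318 and 307 in WstfΔ, 131 and 123 in wild type C, and 359 and 382 in BptfΔ. With 165, 277 and 339 in the other wild types, the WstfΔ libraries of Tle5 lay within their range. Ly75, an endocytic receptor, was at 71.3 and 76.5, 212 and 202, 123 and 116, and 438 and 436, against 92.0, 135 and 165. Obsl1, a cytoskeletal adaptor, was at 72.2 and 67.8, 262 and 263, 66.3 and 66.4, and 195 and 194, against 74.8, 99.1 and 115. Mras, a small GTPase of the RAS family, was at 76.5 and 69.9, 177 and 181, 105 and 97.5, and 266 and 276, against 66.4, 127 and 174. For Ly75 and Obsl1 the lines were above each wild-type library, with Ly75 in WstfΔ at 202 or more against at most 165. For Mras the WstfΔ values were just above the highest one.

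Among 14 fuel and lipid metabolism members, with medians of 1.24 and 1.53, Cpt1a, which carries long-chain fatty acids into mitochondria, was at 29.8 and 28.7 in wild type A, 131 and 125 in WstfΔ, 34.8 and 33.5 in wild type C, and 172 and 168 in BptfΔ. It was at 33.0, 45.9 and 60.5 in the other wild types, with no overlap. Pdk4, which inhibits pyruvate dehydrogenase, had differences of 1.08 and 1.24, the hexokinase Hk1 1.21 and 1.32, the mitochondrial isocitrate dehydrogenase Idh2 1.09 and 1.41, and the cholesterol exporter Abca1 1.03 and 1.64. Of 35 hypoxia and glycolysis genes Hk1 was the 1 member, with 4 called raised and 2 lowered in WstfΔ and 3 raised and 7 lowered in BptfΔ, and of 22 cholesterol synthesis genes 0 were members. The lysosome and autophagy list of 61 genes had 2 members. Wipi1, an autophagosome protein, was at 6.42 and 6.33, 16.8 and 15.1, 4.04 and 3.27, and 9.76 and 10.1, against 3.30, 11.3 and 14.8. The BptfΔ libraries of Wipi1 thus lay inside the range of the other wild types. Laptm5, a lysosomal membrane protein, was at 66.90 and 64.9, 171 and 177, 47.5 and 46.6, and 136 and 143, against 84.5, 111 and 135. In that list 3 genes were called raised and 4 lowered in WstfΔ, and 3 raised and 3 lowered in BptfΔ.

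The 16 developmental transcription factors had medians of 1.29 in WstfΔ and 1.70 in BptfΔ. They included the neural factors Sox1 (1.73 and 2.10), Sox21 (1.70 and 2.93) and Pou4f2 (1.38 and 2.58), the kidney and eye factor Pax2 (2.68 and 1.16), the Notch target Hes1 (1.08 and 1.38) and the retinoid receptor Rxra (1.27 and 2.35). Sox1 was the 1 member among 5 neural markers tested, of which 1 was called raised and 2 lowered in each line. Among 19 members of neuronal signalling and channels, with medians of 1.53 and 1.61, were the glutamate receptor Grm4 (1.41 and 3.28), the prohormone-processing enzyme Cpe (1.51 and 3.24) and the potassium channel Kcnh3 (1.53 and 2.01). Of 46 synapse and neuronal secretion genes tested 0 were members, 1 was called raised in WstfΔ and 2 in BptfΔ, and 9 were called lowered in each line. By gene symbol, ion channel genes made up 2.55% of members and 1.15% of genes tested. WNT, FGF, BMP and EPH genes made up 2.04 and 0.497%, and genes named as zinc finger proteins 0.51 and 2.86%. Genes of these kinds with other symbols were not counted. The 6 role groups hold 91 of the members and were drawn up after the members were known, so their sizes carry no weight.

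The other members with the largest weaker differences were of mixed kinds. Fignl2, a relative of the microtubule-severing protein fidgetin, was at 23.8 and 21.3 in wild type A, 122 and 127 in WstfΔ, 22.4 and 20.8 in wild type C, and 95.8 and 97.7 in BptfΔ, against 34.6, 40.1 and 46.3 in the other wild types. Rapgef3, the cAMP-activated exchange factor EPAC1, was at 8.54 and 8.61, 31.2 and 32.5, 14.2 and 13.1, and 67.2 and 66.7, against 13.0, 17.6 and 19.3. A2m, the protease inhibitor alpha-2-macroglobulin, was at 1.84 and 2.07, 9.61 and 7.54, 3.25 and 2.86, and 11.8 and 14.4, against 1.61, 2.39 and 3.35. All 3, named for their large differences, were higher in every WstfΔ and BptfΔ library than in any wild-type library, which is a description only. Gm13889, Gm53, Vash1 (vasohibin, an angiogenesis inhibitor) and Lix1l had weaker differences between 1.86 and 2.28, and Vash1 was at 16.3 and 17 in WstfΔ and 23.9 and 25.1 in BptfΔ against 9.69 at most in the other wild types.

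**Figure D2:**
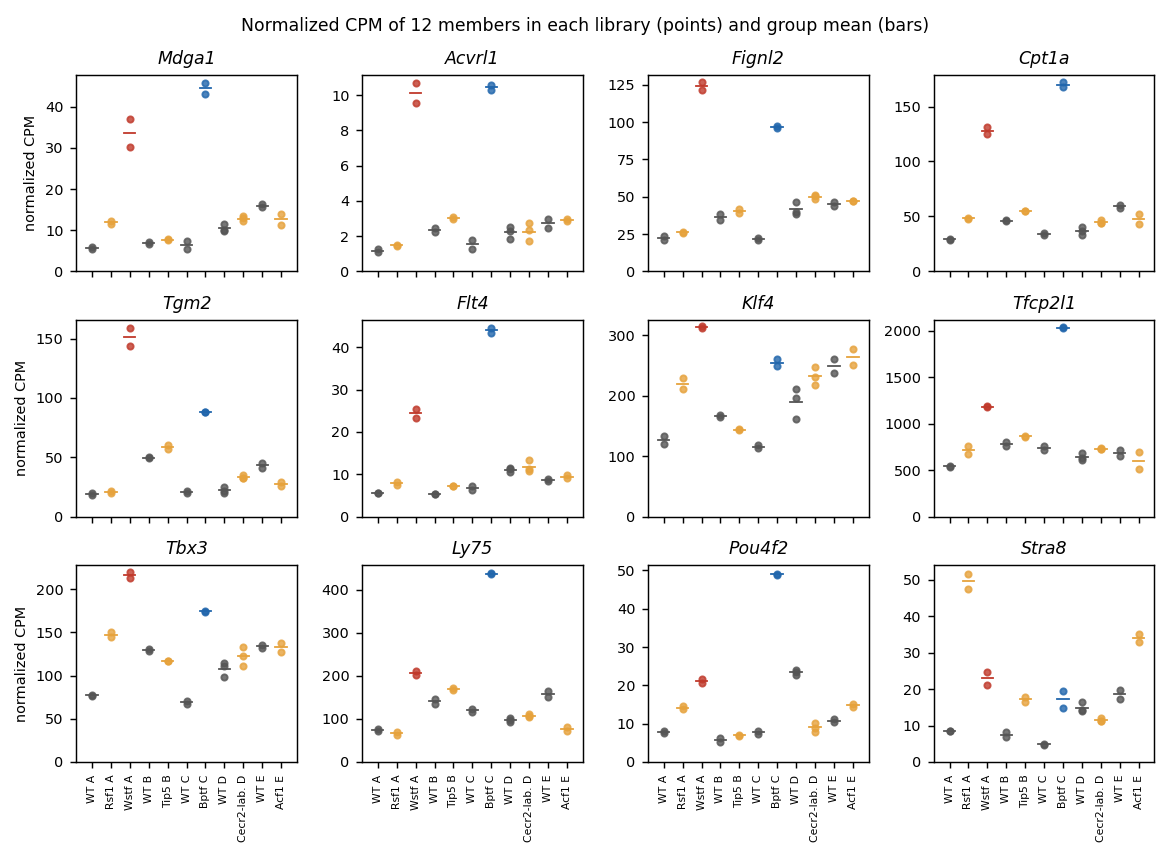
Normalized CPM (y axis, from 0) of 12 members in each library (points) and group means (bars) over the 11 groups, with wild type in grey, WstfΔ in red, BptfΔ in blue and the other lines in orange. Mdga1, Acvrl1, Fignl2, Cpt1a, Tgm2 and Flt4 are highest in WstfΔ and BptfΔ, whereas Klf4 in batch E and Stra8 in Rsf1Δ and Acf1Δ reach or pass the BptfΔ level.

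Seen over all 24 libraries, the members stood at different levels in the wild types themselves. As the median over members of log2 level relative to the mean of the 7 wild-type libraries of batches B, D and E, wild type A was at −0.54 and wild type C at −0.44, wild type B at −0.06, wild type D at −0.11 and wild type E at 0.20. WstfΔ was at 0.83 and BptfΔ at 1.17, and the remaining lines lay between −0.29 (Rsf1Δ) and 0.09 (libraries labelled Cecr2Δ). Medians over all genes tested were within 0.03 of 0 in each library. The rule favours genes that are low in wild type A and in wild type C, the controls of the chosen lines. That choice and differences between cultures cannot be told apart in the low medians there. The rule also used the WstfΔ and BptfΔ levels themselves, so the following counts against the other wild types are a description from which nothing is read. Both WstfΔ libraries exceeded each of the 7 for 169 members (14.5% of all genes tested), both BptfΔ libraries for 168 (26%), and all 4 for 145 (7.46%). A difference of at least 1 from the mean of the 7 was met by 59 members in WstfΔ (1.08% of genes tested), 113 in BptfΔ (5.15%) and 37 in both (0.306%). In wild types B, D and E the members had a median normalized CPM of 9.49, from 0.215 to 693, and a median of 2.17 CPM per kilobase against 4.53 for all genes tested.

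**Figure D3:**
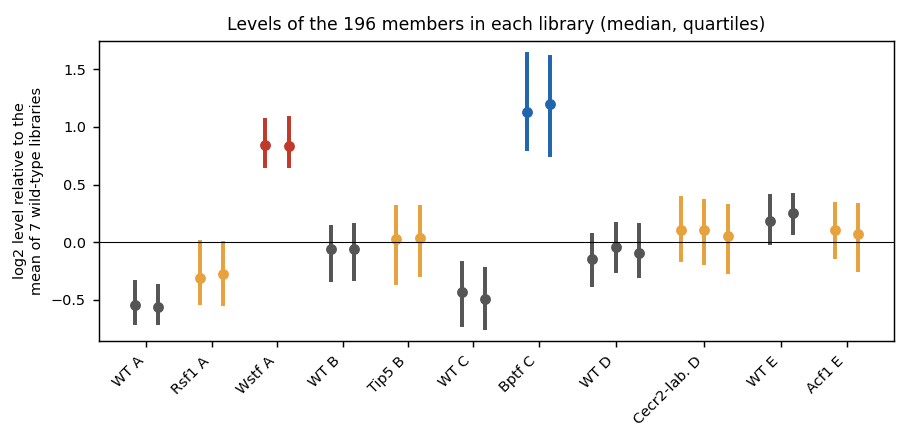
Median (point) and quartiles (line) over the 196 members of the log2 level relative to the mean of 7 wild-type libraries of batches B, D and E, for each library, grouped along the x axis. Both WstfΔ libraries lie near 0.83 and both BptfΔ libraries near 1.17, while wild types A and C lie lowest.

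The Tip5, Cecr2-labelled and Acf1 lines were set against wild types that the rule did not use. The spread behind their p-values was estimated over all 24 libraries, those of the rule included. In the libraries labelled Tip5Δ against wild type B, 2 members were called raised (0.0829% of genes tested) and 1 lowered (2.63%), with a member median of 0.13 and 128 of 196 above 0. Stra8, a gene of meiotic entry, was at 6.78 and 8.25 in wild type B and 16.5 and 17.8 in Tip5Δ (log2 fold change 1.19 ± 0.13, edgeR adjusted p = 7e-08), and Dleu7 rose by 1.11 ± 0.24 (adjusted p = 0.0014). Notum fell from 4.45 and 5.02 to 2.5 and 2.16 (−1.02 ± 0.17, adjusted p = 6.1e-05). The raised count was 1 without replicate 1 of Tip5Δ or replicate 2 of wild type B. The lowered count was 0 without replicate 2 of either group or after centring within deciles of GC content, and 2 without replicate 1 of either. At an adjusted p under 0.01 with no minimum fold, 14 members were raised (2.84% of genes tested) and 4 lowered (6.23%).

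In the libraries labelled Cecr2Δ against wild type D, 8 members were called raised (0.784% of genes tested) and 3 lowered (2.33%), and the member median was 0.23 with 140 above 0. The raised count was 5 without replicate 2 of the labelled line. With no minimum fold 71 were raised (9.52%) and 16 lowered (8.83%). Kbtbd11, a Kelch and BTB protein, was at 8.43, 7.45 and 9.69 in wild type D and 23.6, 22.7 and 22.7 in the labelled line (1.43 ± 0.09, adjusted p = 4.3e-12). Plxdc1, a plexin-domain receptor, was at 2.31, 2.90 and 2.91 and then 6.93, 8.32 and 7.45 (1.49 ± 0.12, adjusted p = 2.1e-10), and the homeobox gene Tlx1 rose by 1.76 ± 0.31 from a level under 1 CPM (adjusted p = 8.8e-05). Pou4f2 fell from 22.8, 23.9 and 23.4 to 7.93, 8.99 and 10.2 (−1.36 ± 0.08, adjusted p = 3.2e-13). Fbp2, a fructose bisphosphatase, fell by 1.36 on the log2 scale (± 0.11, adjusted p = 1e-10) and Sox21 by 1.18 (± 0.11, adjusted p = 5.2e-09). Pou4f2, Fbp2 and Sox21 were thus lowered in this line and higher in WstfΔ and BptfΔ.

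In the Acf1Δ line against wild type E, 2 members were called raised (1.14% of genes tested) and 8 lowered (3.32%), and the member median was −0.16 with 71 above 0. With no minimum fold 21 were raised (15.1%) and 49 lowered (16.7%). Ankrd34a was at 4.46 and 5 in wild type E and 13.0 and 11.9 in Acf1Δ (1.39 ± 0.12, adjusted p = 1.2e-09), and Fbp2 rose by 1.09 ± 0.12 (adjusted p = 1.1e-07). Wipi1 fell from 14.8 and 13.6 to 5.67 and 5.12 (−1.40 ± 0.15, adjusted p = 4.8e-08), and among called members the next largest falls were those of Gm4675 (−1.29 ± 0.35, adjusted p = 0.0041) and the potassium channel subunit Kcnab2 (−1.23 ± 0.33, adjusted p = 0.0034). Bmp7, Fgf1, Itgb3, Ly75 and Xaf1 were also called lowered. The count of lowered members was 5 without replicate 1 of wild type E, and 5 when the line and its own wild type were fitted alone.

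The Rsf1Δ line shares its wild-type libraries with the WstfΔ line, so its counts are not independent of the rule and are given side by side only. Here 23 members were called raised (0.65% of genes tested) and 2 lowered (5.26%), with a median of 0.27. Stra8 was at 8.46 and 8.40 in wild type A and 51.6 and 47.4 in Rsf1Δ, above its 24.8 and 21.0 in WstfΔ. Gm13889 was at 5.54 and 4.97 in Rsf1Δ and 8.09 and 7.17 in WstfΔ, and Tnfrsf13c, the receptor for the B cell factor BAFF, at 1.8 and 1.87 and at 2.17 and 2.85. Of the lowered members, 2310043M15Rik fell from 8.14 and 9.13 to 2.23 and 2.93 while it was at 19.9 and 18.6 in WstfΔ, and Wnt6 from 2.95 and 2.5 to 1.5 and 1.18. The count of lowered members was 1 without replicate 1 of Rsf1Δ or without either library of wild type A.

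Wild-type cultures also differed from each other in these genes. Between wild types B and E, 13 members were higher in E (0.861% of genes tested) and 0 lower (0.835%), and with no minimum fold 65 were higher (10.9%) and 1 lower (10.3%) in edgeR's test. Lower at an unadjusted p under 0.05 were 7, and DESeq2 called 0 lower. In either direction 13 members differed (1.7%). The member median was 0.32, and 163 of 196 were above 0. Mdga1 was at 7.05 and 6.71 in wild type B and 15.6 and 16.3 in wild type E (1.21 ± 0.13, adjusted p = 7.8e-08), Stra8 rose by 1.30 ± 0.12 (adjusted p = 1.83e-08) and Klf4 was at 168 and 165 against 238 and 262 (0.59 ± 0.09, adjusted p = 1.07e-05). Between wild types D and E, 25 members were higher in E (5.69%) and 5 lower (2.04%), 30 in either direction (7.73%), with a median of 0.38. Between wild types B and D, 19 were higher in D (2.85%) and 16 lower (6.75%), 35 in either direction (9.6%), with a median of −0.07. These contrasts share libraries among themselves and with the Tip5, Cecr2-labelled and Acf1 comparisons, and are set side by side without comparing them.

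**Figure D4:**
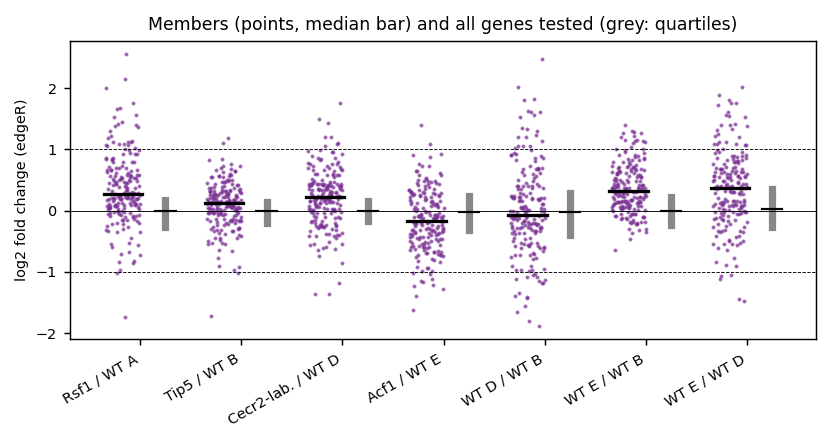
Log2 fold changes from edgeR of the 196 members (purple points, black bar at the median) and of all genes tested (grey bar from the lower to the upper quartile, with the median) in 4 lines and 3 contrasts between wild types. Member medians run from −0.16 in Acf1Δ to 0.38 for wild type E against D, and the members called beyond the dashed lines at 1 and −1 number from 3 in Tip5Δ to 35 between wild types B and D.

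Markers of other cell types moved in the same comparisons. The summed normalized CPM of 9 primitive endoderm markers was 3267 to 3799 in wild type A and 831 to 851 in WstfΔ, and 1929 to 2025 in wild type C and 279 to 286 in BptfΔ, with 7 and 9 of the 9 called lowered. None was at 0 in a group. In Rsf1Δ, which shares wild type A, it was 981 to 1039 with 8 of 9 lowered. The same sum was 3556 to 3613 in wild type B and 601 to 635 in Tip5Δ, where all 9 were called lowered and 2 members were raised, and 853 to 920 in wild type D and 162 to 177 in the libraries labelled Cecr2Δ, with 8 of 9 lowered and 8 members raised. In Acf1Δ it was 1983 to 2662 against 1924 to 2336 in wild type E, and 0 of 9 were called by edgeR or DESeq2, with 6 higher and 1 lower at an unadjusted p under 0.05. In bulk RNA, fewer cells of a type and less RNA per cell cannot be told apart. The summed level of 7 trophectoderm markers was 377 to 386 in wild type A and 42.7 to 43.3 in WstfΔ, where Elf5 was at 0, and 128 to 131 in wild type C and 45.1 to 48.7 in BptfΔ. It was 65.5 to 67.7 in Rsf1Δ, 293 to 303 in wild type B and 168 to 184 in Tip5Δ, 79.9 to 99.3 in wild type D and 28.8 to 31.1 in the libraries labelled Cecr2Δ, and 198 to 209 in wild type E and 145 to 148 in Acf1Δ. Of the 8 embryonic stem cell markers 0 were called in WstfΔ (3.87% raised and 6.57% lowered of all genes tested). Their list median log2 fold change there was 0.46. In BptfΔ 1 was called raised (5.25% of all genes tested) and 1 lowered (8.59%), with a list median of 0.16. Together the 8 summed to 3727 to 3867 in wild type A and 5015 to 5079 in WstfΔ. In wild type C they summed to 3655 to 3773, and in BptfΔ to 4559 to 4595. They summed to 4871 to 4905 in Rsf1Δ, 4332 to 4361 in wild type B and 4330.4 to 4528 in Tip5Δ, 4712 to 5130.5 in wild type D and 5354 to 5622 in the libraries labelled Cecr2Δ, and 4541 to 4682 in wild type E and 5436 to 5461 in Acf1Δ. For 7 fibroblast markers the sum was at most 32.5 in any group. None of these 4 lists held a member. The part of these markers in the members' differences was not tested.

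Members had GC-rich transcripts. The median GC content of the transcript was 56.1% over 191 members with a value (quartiles 52.6 and 59.4%) and 51.2% over 14800 genes tested (46.5 and 55.6%). Members were 3.99% of the genes in the top GC decile (59 genes) and 0.135% of those in the lowest (2 genes). From the lowest to the highest decile the median log2 fold change of all genes tested ran from −0.14 to 0.27 in WstfΔ and from −0.13 to 0.26 in BptfΔ, with Pearson's r across genes of 0.185 and 0.139, genes that share their libraries and are not independent. In Tip5Δ it ran from 0.08 to −0.05 and in the libraries labelled Cecr2Δ from 0.04 to −0.04, where the member medians were 0.13 and 0.23. In Acf1Δ it ran from −0.16 to 0.10, and the member median was −0.16. In Rsf1Δ it ran from −0.03 to 0.10, with a member median of 0.27. Between wild types B and E it ran from −0.03 to 0.10, between B and D from −0.08 to 0.14 and between D and E from 0.06 to −0.0013, with member medians of 0.32, −0.07 and 0.38. The part of GC content in the members' differences was not tested. After each log2 difference was centred within its GC decile, an alternative added after seeing the data, 153 genes passed the rule, of which 147 were among the 196. Median gene width was 3977 bases for members and 4025 for all genes tested.

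**Figure D5:**
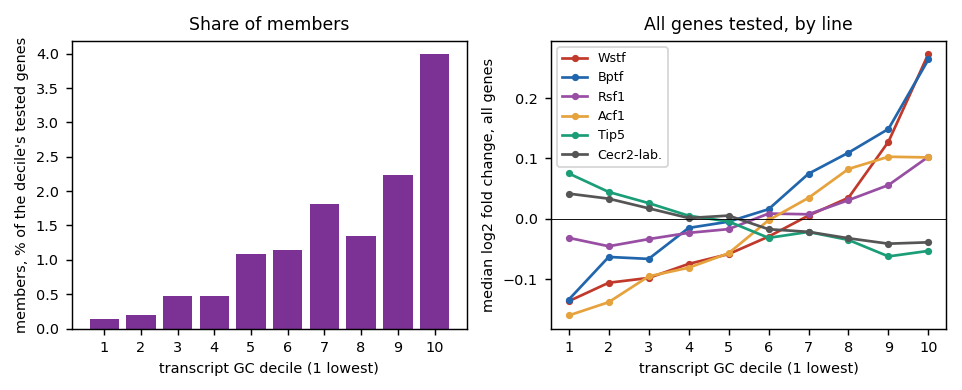
Left, members as a percentage of the tested genes in each decile of transcript GC content; right, the median log2 fold change of all genes tested in each decile for 6 lines. The share of members rises from 0.135% in the lowest to 3.99% in the highest decile, and the medians climb in WstfΔ, BptfΔ, Rsf1Δ and Acf1Δ but fall slightly in the Tip5Δ and Cecr2-labelled libraries.

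Members lay on most chromosomes, with 22 on chromosome 11, 20 on chromosome 4 and 18 on chromosome 2, and 1 on the X chromosome (0.181% of its tested genes). By share of a chromosome's tested genes, chromosome 15 was highest with 2.4% (15 genes) and chromosome 7 stood at 0.394%. Among genes tested, 33 members were next to another member, in 16 runs. The longest run was Fignl2, Acvrl1 and Acvr1b at chr15:101050192-101213684 on mm10. Next in the order of listing came Ankrd34a with Lix1l at chr3:96595928-96625352 and Dsg2 with Gm16090 at chr18:20558074-20665260. Dsg2, a desmosomal cadherin, was at 129 and 128 in WstfΔ and 69.8 and 72.3 in BptfΔ, against 70.4, 72.5 and 94.9 in the other wild types. The annotated spans of Dsg2 and Gm16090 overlap, as do those of Sox21 and Gm4675, of Lims2 and Gpr17, and of 38 members in all with another tested gene. How counting treated strand was not given in the sources used here, so such pairs may share reads. Fbxo44, Fbxo2, Draxin, Camk2n1 and Spsb1 lay within 2 Mb of the segment of chromosome 4 that was left out.

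The counts called in the other lists stand beside 3.87% raised and 6.57% lowered of all genes tested in WstfΔ, and 5.25% and 8.59% in BptfΔ. Of 28 p53 targets 2 were members, Gdf15 and the epoxide hydrolase gene Ephx1. In that list 5 were called raised and 1 lowered in WstfΔ, and 3 raised and 0 lowered in BptfΔ, where 4 were lower at an unadjusted p under 0.05 in edgeR and DESeq2 called 0 lowered. Of 20 Wnt targets 2 were members, Notum and Wnt6. In that list 2 were called raised and 5 lowered in WstfΔ, and 4 raised and 7 lowered in BptfΔ. Of 24 genes of FGF and ERK feedback, Etv1 was the 1 member, and in each line 1 was called raised and 6 lowered. The lists without a member included 16 genes of LIF, JAK and STAT3 signalling, 25 germline genes (11 lowered in WstfΔ and 12 in BptfΔ), 35 imprinted genes (13 and 10 lowered) and 25 YAP, SRF and contractile genes (13 and 12 lowered). In the last 3 of these lists at most 1 gene was called raised in either line. For the genes of stress pathways, 25 ATF4 targets and 28 NRF2 genes held 0 members, as did 23 interferon genes, 5 mesoderm markers, 2 two-cell-like genes and 14 ISWI ATPases and partners. Of 30 cell adhesion genes Dsg2 was the 1 member. In that list 1 was called raised and 7 lowered in WstfΔ, and 4 raised and 11 lowered in BptfΔ.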

How the data were processed

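RNA-seq of 24 libraries (6 lines and wild type in 5 batches) was used. The authors deposited raw counts per gene in 1 table, made by aligning reads to mm10 with the QuasR package and the HISAT2 aligner, and converted basecalls with bcl2fastq 2.17 per the labels. The deposited gene width, another column of the table, is in bases. From the counts, the rule's difference was computed on CPM with a pseudocount of 0.5. Tests used edgeR 4.0.16 (R 4.3.3): TMM factors, a filter on low counts by genotype, a model of batch and genotype over all 24 libraries, the quasi-likelihood F test and Benjamini-Hochberg adjustment over 15682 genes. Genes were called where the adjusted p was under 0.01 and the change, up or down, exceeded 1 on the log2 scale. edgeR was also run on simulated data, and the outcome is not given here. Of the IDs, 24570 matched RefSeq on GRCm38.p6. Transcript GC content came from GENCODE transcripts.

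The members and the 25 gene lists were chosen with earlier results of these data known, and the WstfΔ and BptfΔ values of members are therefore described without a test. Genes were named by rule: the 15 with the largest smaller difference and at least 10 counts, the 8 with the highest CPM, members of 3 lists, the most changed members per other line, those at the threshold, and neighbours. Other members named in role groups, and genes outside the group, were picked after their values were seen. In batch C alone, both BptfΔ and wild type held high levels of the non-polyadenylated RNAs Rpph1 and Rmrp. The alternatives are DESeq2 1.42.0, other scalings, filters, pseudocounts, a replicate block and leaving out libraries.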

Additional observations from a re-analysis of the deposited data

How the results depend on the processing

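Apart from leaving out a library, 103 values stayed within 1.5 times their main value and 17 did not. Dropping the minimum fold gave 60 members raised (7.45% of all genes tested) and 9 lowered (13.1%) in Rsf1Δ, 14 (2.84%) and 4 (6.23%) in Tip5Δ, 71 (9.52%) and 16 (8.83%) in the Cecr2-labelled libraries, and 21 (15.1%) and 49 (16.7%) in Acf1Δ. Between wild types it gave 103 members differing for B and D (45.6% of all genes tested), 66 for B and E (21.2%) and 111 for D and E (41.1%). Lowered members in Rsf1Δ numbered 1, not 2, under edgeR's newer quasi-likelihood form, with the replicate number as a block, or after centring within GC deciles. Lowered members in Tip5Δ numbered 2 by library size only and 0 after GC centring, not 1. In Acf1Δ 5, not 8, were lowered when the line and its own wild type were fitted alone. The cause was not tested. The rule itself gave 289 genes with a pseudocount of 0.1, which held all 196, and 153 with a pseudocount of 1.

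Leaving out 1 library at a time gave 193 to 213 members by the rule, 187 to 191 raised in WstfΔ and 190 to 193 in BptfΔ. For raised and lowered members it gave 20 to 25 and 1 to 2 in Rsf1Δ, 1 to 2 and 0 to 2 in Tip5Δ, 5 to 10 and 3 to 3 in the Cecr2-labelled libraries, and 2 to 3 and 5 to 10 in Acf1Δ. Members differing between wild types ran from 32 to 37 (B and D), 12 to 14 (B and E) and 28 to 35 (D and E). Raised members numbered 5 (not 8) without replicate 2 of the Cecr2-labelled libraries, and 1 (not 2) in Tip5Δ without its replicate 1 or replicate 2 of wild type B. Lowered members in Tip5Δ numbered 2 without replicate 1 of Tip5Δ or of wild type B and 0 without replicate 2 of either. Same-numbered libraries did not deviate together (Pearson's r of −0.0672 to 0.0453 over 13 pairs, where both pairs of a line with 2 libraries give the same value), so the numbers do not pair them. With the block 194 members were raised in WstfΔ. The rule chose all members on the WstfΔ and BptfΔ contrasts, so the counts raised there say nothing of stability. Depth and replication limit these values, with 2 or 3 libraries per group of a single clone, and 12 members under 10 counts in a control.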
